A study of Arabidopsis thaliana with 32 samples.

Results

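DFR and AT1G06000 are enzymes of flavonoid metabolism in Arabidopsis thaliana, and both were chosen on their array signal, because earlier results of these data showed it falling during heat and returning in recovery. They are 2 of the 13333 loci for which a probe set of the array named a single gene. DFR (AT5G42800, also called TT3) and AT1G06000 (also called UGT89C1) were each read by 1 probe set. Because the choice used their course over time, every difference between times is given below for these genes as a description, without a test. The difference between shoots and roots at a given time was not used in the choice, and it was tested for AT1G06000. For DFR it is described only, because root signals of that gene were too low.

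Seedlings of the wild-type accession Col-0 (stock N1092) were raised at 24 °C under 16 h of light a day, on the medium of Murashige and Skoog. On day 16, starting 3 h into the light, they were heated to 38 °C. Shoots and roots were collected after 0.25, 0.5, 1 and 3 h of heat, and 1, 3, 9 and 21 h after plants heated for 3 h were returned to 25 °C, which made 16 groups with 2 arrays each. All groups carried heat, since the samples used included no unheated plants, and 0.25 h of heat was therefore the earliest reference. The harvests also differed in clock hour. That at 21 h of recovery fell 3 h into the light, close to the 3.25 h of the earliest heat harvest, while the harvest at 9 h of recovery fell 15 h into the light. With no unheated plants at these hours, time in heat or recovery and clock hour cannot be told apart in any of the courses below. Whether the 2 replicates of a group came from separate cultures is not stated in the labels, so the p-values reflect the spread among these arrays alone, and that spread may be technical.

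Flavonoids are phenolic compounds that plants make from phenylalanine. The pathway divides at the dihydroflavonols. Flavonol synthase turns them into flavonols, which Arabidopsis stores as glycosides in leaves, flowers and roots, whereas dihydroflavonol reductase, encoded by DFR, reduces them to the leucoanthocyanidins from which anthocyanin pigments and the proanthocyanidins of the seed coat are built. AT1G06000 acts at the end of the flavonol branch, where it attaches rhamnose to flavonol glycosides. The genes therefore mark different branches of the same pathway.

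Values are MAS5 signals, a linear brightness with a 2% trimmed mean of about 100 on every array. Median signals per array were 31.6 to 49.0, and the correlation between replicates in log2 signal was 0.984 to 0.993. The 5 measured shoot markers (RCA, LHCB4.1, LHCB4.2, LHCB4.3 and CHLM) summed to signals of 11719 to 20794 on shoot arrays and of 231 to 1318 on root arrays, and all 5 were higher in shoots at all 8 times. The 3 measured root markers (EXPA7, EXPA18 and PYK10) summed to 1903 to 3805 on root arrays and to 198 to 925 on shoot arrays, and most of that sum was PYK10. By the tissue test described below, all 3 were higher in roots at 0.25 h of heat and 3 h of recovery. At 1 and 3 h of heat and 21 h of recovery 2 were higher in roots, and at 0.5 h of heat and 1 and 9 h of recovery 1 was. At no time was a root marker higher in shoots. All 4 heat genes used as a check of the treatment rose between 0.25 and 3 h of heat in both tissues. The signal of different probe sets depends on their probes as well as on RNA, so levels of DFR and AT1G06000 were not set against each other. In these bulk tissues, fewer cells of a type and less RNA per cell cannot be told apart.

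AT1G06000 lost most of its signal in heated shoots. At 0.25 h of heat the replicates read 139 and 134, and at 0.5 h they read 76.0 and 112. At 1 h the signal was 12.9 and 21.5, and at 3 h it was 5.59 and 9.65. The arrays at 3 h lay below every other shoot array. The group means at 0.5, 1 and 3 h were 69.3%, 12.7% and 5.60% of the mean at 0.25 h. On the log2(signal + 10.7) scale used for all fitted differences, which understates changes of dim genes, the difference between 3 and 0.25 h was −3.01 ± 0.19 (SE). Most of the loss came between 0.5 and 1 h. At 3 h both arrays read below the 40th percentile of their own array, the level set as the lower limit for a measured signal, so the depth of the loss is poorly defined there.

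**Figure D1:**
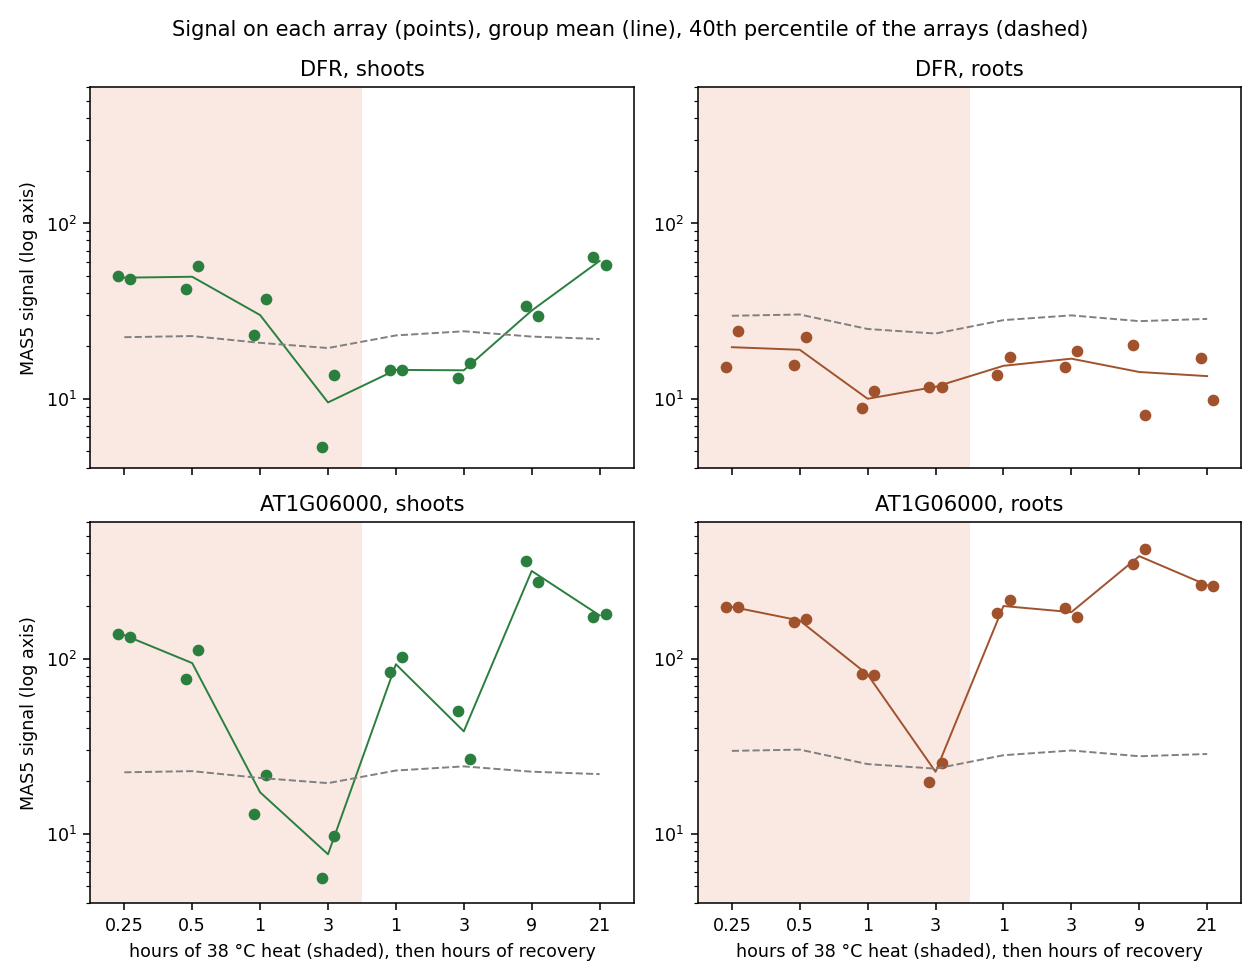
MAS5 signal (log axis) of DFR and AT1G06000 on each array (points) in shoots and roots after 0.25 to 3 h of heat (shaded) and 1 to 21 h of recovery, with group means (lines) and the mean 40th percentile of the group's arrays (dashed). AT1G06000 was lowest at 3 h of heat and highest at 9 h of recovery in both tissues. DFR stayed below the dashed line on all 16 root arrays.

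Recovery of AT1G06000 in shoots came in a first return, a dip and a second, higher return. After 1 h at 25 °C the replicates read 84.0 and 102, a log2 difference of 2.50 ± 0.19 from 3 h of heat. At 3 h of recovery they read 50.3 and 26.5, both below the arrays at 1 h of recovery (difference −1.11). At 9 h of recovery they read 361 and 272, the highest of all shoot arrays, and the mean was 233% of that at 0.25 h of heat. The difference between 9 h of recovery and 3 h of heat was 4.15. At 21 h of recovery the signal was 173 and 180, or 130% of the mean at 0.25 h of heat, a log2 difference of 0.35. Both arrays at 21 h lay above both at 0.25 h of heat.

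In roots the same gene kept more of its signal at 1 h of heat and showed no dip between 1 and 3 h of recovery beyond the spread of the arrays. The signal was 197 and 198 at 0.25 h of heat, and 163 and 167 at 0.5 h. It was 81.4 and 80.7 at 1 h, and 19.7 and 25.4 at 3 h. The last pair lay below all other root arrays, at 11.4% of the mean at 0.25 h (log2 difference −2.65 ± 0.19), whereas 1 h of heat had left 41.0%. After 1 h of recovery the replicates read 182 and 217, already 101% of the earliest mean, and after 3 h they read 195 and 173. The groups at 1 and 3 h of recovery overlapped. At 9 h the signal was 348 and 421, the highest in roots, and 195% of the earliest mean. At 21 h it was 264 and 261.

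Ordered by group mean, AT1G06000 in shoots ran from 3 h and 1 h of heat through 3 h and 1 h of recovery to 0.5 and 0.25 h of heat, then 21 h and 9 h of recovery. The only neighbours in that order whose arrays overlapped were 1 h of recovery and 0.5 h of heat. In roots the order was 3, 1 and 0.5 h of heat, 3 h of recovery, 0.25 h of heat and 1 h, 21 h and 9 h of recovery, and only 0.25 h of heat and 1 h of recovery overlapped as neighbours. In both tissues the lowest group was 3 h of heat and the highest 9 h of recovery. The highest group mean was 41.5 times the lowest in shoots and 17.0 times the lowest in roots, ratios that rest on dim signals at 3 h of heat.

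DFR had its measurable signal in shoots. The replicates read 50.0 and 48.1 at 0.25 h of heat and 42.1 and 57.1 at 0.5 h, and these groups overlapped. At 1 h they read 23.0 and 37.0, and at 3 h they read 5.30 and 13.7. The difference between 3 and 0.25 h was −1.59 ± 0.23 on the log2 scale, of which −0.58 had been reached by 1 h. Against AT1G06000, whose shoot signal at 1 h was 12.7% of its earliest level, DFR kept 61.2% at that time. Whether the genes differed in pace was not tested.

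The return of DFR in shoots was late. At 1 h of recovery the replicates read 14.56 and 14.59, and at 3 h they read 13.03 and 15.96. The group at 3 h of recovery overlapped with 3 h of heat, where replicate 2 had read 13.7, and the group at 1 h lay just above it. All 6 arrays of these groups lay below the 40th percentile of their array. At 9 h of recovery the signal was 33.8 and 29.8, and at 21 h it was 64.1 and 58.2, above all other shoot arrays. The difference from 3 h of heat was 1.102 at 9 h and 1.86 at 21 h, and the difference between 21 h of recovery and 0.25 h of heat was 0.27. In the order of group means, arrays of neighbours overlapped between 3 h of heat and 3 h of recovery, between 3 and 1 h of recovery, between 1 h of heat and 9 h of recovery, and between 0.25 and 0.5 h of heat. The other neighbours did not overlap. The 2 arrays at 3 h of heat differed, and the difference between 3 and 0.25 h was −1.29 without replicate 1 and −1.90 without replicate 2 of that group.

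In roots DFR ranged from 8.02 to 24.2 with a median of 15.1, and 0 of 16 arrays reached the 40th percentile of their array. Fitted differences between root times were small, −0.42 between 3 and 0.25 h of heat and 0.11 between 9 h of recovery and 3 h of heat. With no root array at a measurable level, neither a loss nor a return of DFR was detectable in roots. The gene entered the fitted table only through shoots, where 10 of 16 arrays, and both arrays of 5 groups, were above that percentile. AT1G06000 was above it on 13 of 16 shoot arrays and 15 of 16 root arrays.

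Signs of RNA composition moved with the loss in shoots. The probe set for 25S ribosomal RNA read 146 at 0.25 h of heat in shoots (group mean) and 112 at 0.5 h, 1916 at 1 h and 2405 at 3 h, and the ratio of the 3′ to the 5′ actin probe sets went from 4.74 to 13.7 between 0.25 and 3 h. In recovering shoots the 25S signal was 203 at 1 h, 1289 at 3 h, 679 at 9 h and 104 at 21 h. The dip of AT1G06000 in shoots at 3 h of recovery therefore fell at a time of high 25S signal, as did its loss at 1 and 3 h of heat, and the part of RNA composition in these results was not tested. In roots the 25S signal was 722 at 0.25 h, 2415 at 0.5 h and 3080 at 3 h of heat, and 840 and 2227 at 1 and 3 h of recovery. It was 2322 at 1 h of heat. The group mean of AT1G06000 in roots was 165 at 0.5 h, 81.1 at 1 h and 22.6 at 3 h of heat, and 184 at 3 h of recovery. The actin ratio in roots went from 11.0 to 19.4 between 0.25 and 3 h of heat. At 9 h of recovery in shoots, replicate 1 had a 25S signal of 1270 and replicate 2 one of 88.6, and AT1G06000 read 361 on the first and 272 on the second.

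Shoots and roots were compared at each of the 8 times with limma, with p-values adjusted by the Benjamini-Hochberg method over all 16782 probe sets kept. A difference passed where the adjusted p was under 0.05 and the log2 difference at least 1. AT1G06000 was higher in roots at 3 of 8 times. At 1 h of heat shoots held a mean of 17.2 ± 6.07 (SD) and roots 81.1 ± 0.51 (shoots minus roots −1.73 ± 0.19 SE, adjusted p from limma = 1.29e-08). At 1 h of recovery the means were 92.8 ± 12.6 and 200 ± 24.5 (−1.02, limma adjusted p = 4e-05). At 3 h of recovery they were 38.4 ± 16.8 and 184 ± 15.9 (−2.03, limma adjusted p = 7.51e-10). The result at 1 h of recovery lay close to the threshold. It no longer passed after quantile normalization (−0.97), after 75th percentile scaling (−0.90), with a pseudocount 4 times as large (−0.84), or without replicate 1 in shoots (−0.90) or replicate 2 in roots (−0.90).

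At the other 5 times the root mean was also the higher, with log2 differences of −0.50 at 0.25 h of heat, −0.77 at 0.5 h, −0.86 at 3 h, −0.28 at 9 h of recovery and −0.55 at 21 h, none of which passed. Under alternative processing the difference reached −1.02 at 0.5 h and −1.31 at 3 h of heat, beyond the threshold of 1. It stayed short of 1 at 0.25 h of heat and at 9 and 21 h of recovery. The arrays of the tissues overlapped only at 9 h of recovery. Of all probe sets, 36.2%, 35.1%, 34.4% and 34.0% passed in either direction at 0.25, 0.5, 1 and 3 h of heat, and 34.0%, 33.0%, 36.3% and 37.3% at 1, 3, 9 and 21 h of recovery. A tissue difference as such was therefore common on these arrays. Whether the tissue difference of AT1G06000 changed between times was not tested.

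For DFR the same differences are given without a test, because the gene was kept only through its shoot groups and no root array was at a measurable level, so that the filter favours shoots. At 0.25 and 0.5 h of heat the means were 49.0 ± 1.36 (SD) and 49.6 ± 10.6 in shoots, and 19.6 ± 6.45 and 19.0 ± 4.84 in roots (shoots minus roots 0.99 and 1.02 on the log2 scale). The difference was 0.96 at 1 h of heat, at 9 h of recovery 0.82 and at 21 h 1.59, and at all 5 of these times the arrays of the tissues did not overlap. At 3 h of heat and at 1 and 3 h of recovery the differences were −0.18, −0.04 and −0.13, and the arrays overlapped. These are the times at which shoot DFR was itself below the 40th percentile.

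**Figure D2:**
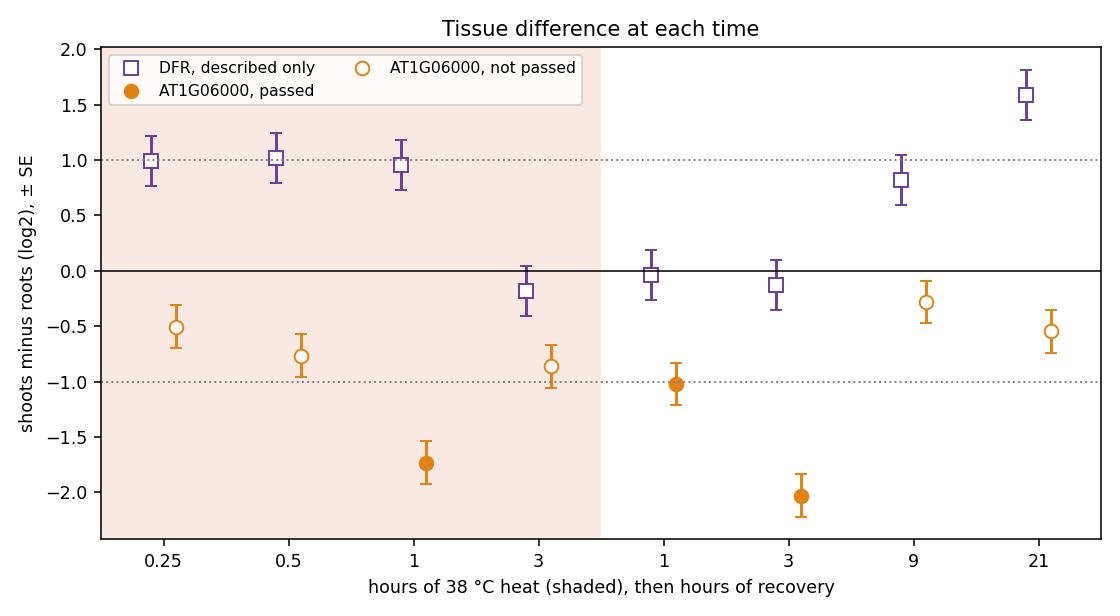
Fitted log2 difference between shoots and roots (± SE of the fit, 2 arrays per group) for DFR and AT1G06000 at each time, with dotted lines at a difference of 1 in either direction. Circles show AT1G06000, filled where the difference passed, at 1 h of heat and at 1 and 3 h of recovery, and squares show DFR, which was described and not tested because its root signals were below the 40th percentile.

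Other genes of flavonoid metabolism were tested between times. Of 68 listed loci, 14 had a probe set naming only that gene, and 9 of these passed the filter on low signal. Among the latter, CHIL is a chalcone isomerase-like protein that raises the output of the first steps. UGT78D1 adds rhamnose and UGT78D2 adds glucose to flavonols, and UF3GT adds xylose to anthocyanins. BGLU15 is a glucosidase that removes sugar from flavonol glycosides, and UGT80B1 is a sterol glucosyltransferase whose loss pales the seed coat. HYH is a light-responsive transcription factor close to HY5, AT1G23390 is an F-box protein that promotes breakdown of chalcone synthase, and TRY is a small MYB protein that represses MYB-bHLH complexes. No listed gene of general phenylpropanoid entry or of rhamnose donor synthesis had such a probe set, so these steps were not analysed here.

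Between 0.25 and 3 h of heat in shoots, 5 of the 9 genes fell, 0 rose and 4 did not pass. CHIL went from 78.5 ± 8.70 to 7.67 ± 4.91 (SD), a log2 difference of −2.30 ± 0.30 SE (limma adjusted p = 4.18e-07). HYH went from 122 ± 9.55 to 21.7 ± 4.39 (−2.03, limma adjusted p = 8.8e-11). The sugar transferases UF3GT (−1.46), UGT78D1 (−1.40) and UGT78D2 (−1.24) fell as well. AT1G23390 (−0.86), BGLU15 (−0.60), TRY and UGT80B1 (−0.48) did not pass. Of all probe sets, 8.25% fell and 6.05% rose in this comparison. The median of the 9 genes was −1.24 and that of all probe sets −0.11. The 25S signal and the actin ratio given above were higher at 3 h than at 0.25 h in both tissues, and their part in the counts was not tested.

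In roots over the same interval 4 of 9 fell and 0 rose, beside 9.17% and 6.05% of all probe sets. They were CHIL (102 ± 4.73 to 24.2 ± 8.29, −1.70, limma adjusted p = 2.88e-05), UGT78D1 (−1.62), AT1G23390 (−1.56) and UGT78D2 (−1.07). UGT78D1 read 27.6 and 22.6 and then 1.29 and 0.47, below the 40th percentile on all 4 arrays, so its change is not measurable here although it passed the test. UGT78D2 no longer passed after quantile normalization (−0.92), after 75th percentile scaling (−0.95), or without replicate 1 at 0.25 h (−0.94) or at 3 h (−0.997). The median of the 9 was −0.71 and that of all probe sets −0.16. TRY lay below the 40th percentile on every root array, and no root group had both UF3GT arrays above it. Both genes stay in the counts for roots, where their failure to pass does not show an unchanged level.

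The 3 recovery times were each compared with the same arrays at 3 h of heat, so those comparisons share that reference. In shoots UGT80B1 rose at 1 h of recovery (34.8 ± 3.35 to 89.9 ± 3.08, 1.15, limma adjusted p = 6.44e-08). That made 1 of 9 that rose and 0 that fell, beside 7.03% and 4.59% of all probe sets, a share near the background. UF3GT and UGT78D1 stood at 0.92, CHIL at 0.74 and UGT78D2 at 0.25, short of the threshold of 1, with limma adjusted p of 0.000779, 0.000217, 0.0399 and 0.0581. UGT80B1 did not pass after quantile normalization (0.88). Without replicate 1 at 3 h of heat, CHIL (1.01) and UF3GT (1.07) also passed, and without replicate 1 at 1 h of recovery UGT78D1 (1.16) did. AT1G06000 had by then returned to 68.2% of its earliest mean in shoots, and DFR stood at 29.7%.

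In roots at 1 h of recovery 3 of 9 rose and 1 fell, beside 4.88% and 4.2% of all probe sets. UGT78D1 (1.77), AT1G23390 (1.51) and UGT78D2 (1.18) rose, the last from 67.1 ± 5.29 to 165 ± 1.43 (limma adjusted p = 3.14e-09). UGT78D1 read 1.29 and 0.475 at 3 h of heat, below the 40th percentile, and 28.4 and 29.1 at 1 h of recovery, just above it. The size of its rise is poorly defined, and it did not pass with 4 times the pseudocount (0.71). HYH fell from 53.7 ± 4.76 to 19.4 ± 0.71 (−1.097, limma adjusted p = 4.24e-06). UGT78D2 was at 108% of its earliest mean, close to the 101% of AT1G06000 in the same tissue. CHIL had reached 41.5% of its own.

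At 9 h of recovery, when AT1G06000 peaked in both tissues, 6 of 9 flavonoid genes were higher in shoots than at 3 h of heat and 1 was lower, beside 11.5% and 7.13% of all probe sets. CHIL rose to 150 ± 98.2 (3.01 ± 0.30 SE, limma adjusted p = 3.79e-09), with replicates of 220 and 80.8, both above the 11.1 and 4.199 of 3 h of heat. UGT78D1 rose from 63.8 ± 3.66 to 401 ± 31.4 (2.46, limma adjusted p = 3.72e-11), UGT78D2 by 1.54, HYH by 1.46, UGT80B1 by 1.30 and UF3GT by 1.11. AT1G23390 fell from 654 ± 55.4 to 164 ± 12.7 (−1.93, limma adjusted p = 6.28e-11). UF3GT did not pass without replicate 2 at 3 h of heat (0.96). Replicate 1, with the higher CHIL signal, was the array with the high 25S signal. UGT78D1, like AT1G06000, was highest in shoots at this time on both arrays. The group mean of CHIL was also its highest, but rested on replicate 1, since the 80.8 of replicate 2 lay below the means of 101 at 21 h of recovery and 103 at 0.5 h of heat.

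In roots at 9 h, 4 of 9 rose and 0 fell, beside 9.67% and 6.95% of all probe sets. UGT78D1 went from 0.88 ± 0.58 to 135 ± 4.15 (3.65 ± 0.19 SE, limma adjusted p = 5.21e-14), CHIL rose by 3.42 to 361 ± 67.9 and UGT78D2 by 2.44 to 411 ± 18.9. HYH rose by 1.15, a call that was lost after quantile normalization (0.97) and without replicate 1 at 9 h (0.93). AT1G23390, which fell in shoots, stood at 0.93 in roots and did not pass. UF3GT (−0.36) and BGLU15 (0.20) did not pass either.

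At 21 h of recovery, when DFR was at its highest in shoots, 6 of 9 were higher than at 3 h of heat and 0 lower, beside 9.15% and 7.13% of all probe sets. CHIL (2.61), HYH (2.46), UGT78D1 (1.85), UF3GT (1.61), UGT78D2 (1.54) and TRY (1.26) had risen. HYH read 161 and 173, its highest values in shoots, after 12.8 and 7.98 at 3 h of recovery. UF3GT read 35.5 and 33.0, also its highest. In roots 4 of 9 rose and 0 fell, beside 10.2% and 6.76% of all probe sets, namely CHIL (2.07), UGT78D1 (2.03), UGT78D2 (1.35) and AT1G23390 (1.12). The last did not pass without replicate 1 at 21 h (0.94).

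**Figure D3:**
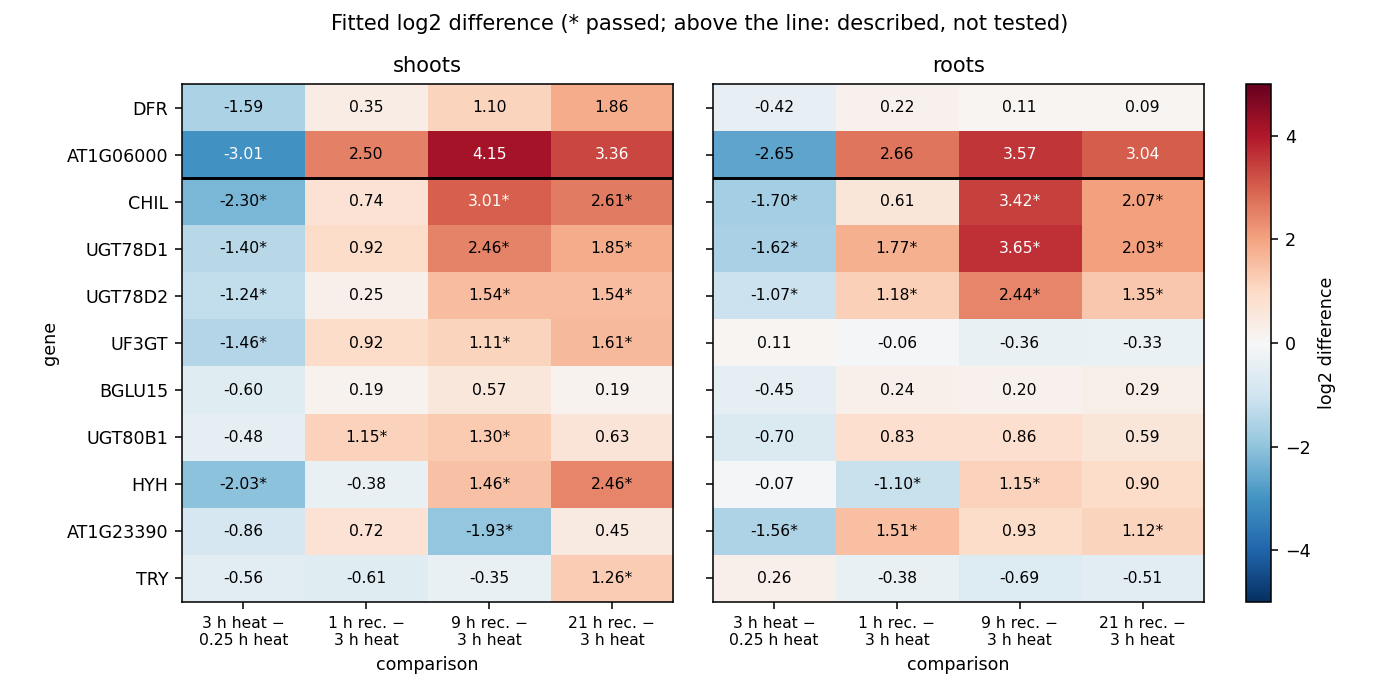
Fitted log2 differences (colour and printed value) of DFR and AT1G06000 (above the line, described and not tested) and of the 9 other flavonoid genes kept, for 3 h against 0.25 h of heat and for 3 recovery times (1, 9 and 21 h) set against 3 h of heat, by tissue. An asterisk marks an adjusted p from limma under 0.05 with a difference of at least 1. Of the 9 genes, 5 fell in heated shoots and 4 in heated roots (1 of them, UGT78D1, below the 40th percentile throughout), and 6 and 4 were higher at 21 h of recovery. UF3GT, counted in shoots, lay below that percentile at 3 h of heat, so its differences are descriptions.

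**Figure D4:**
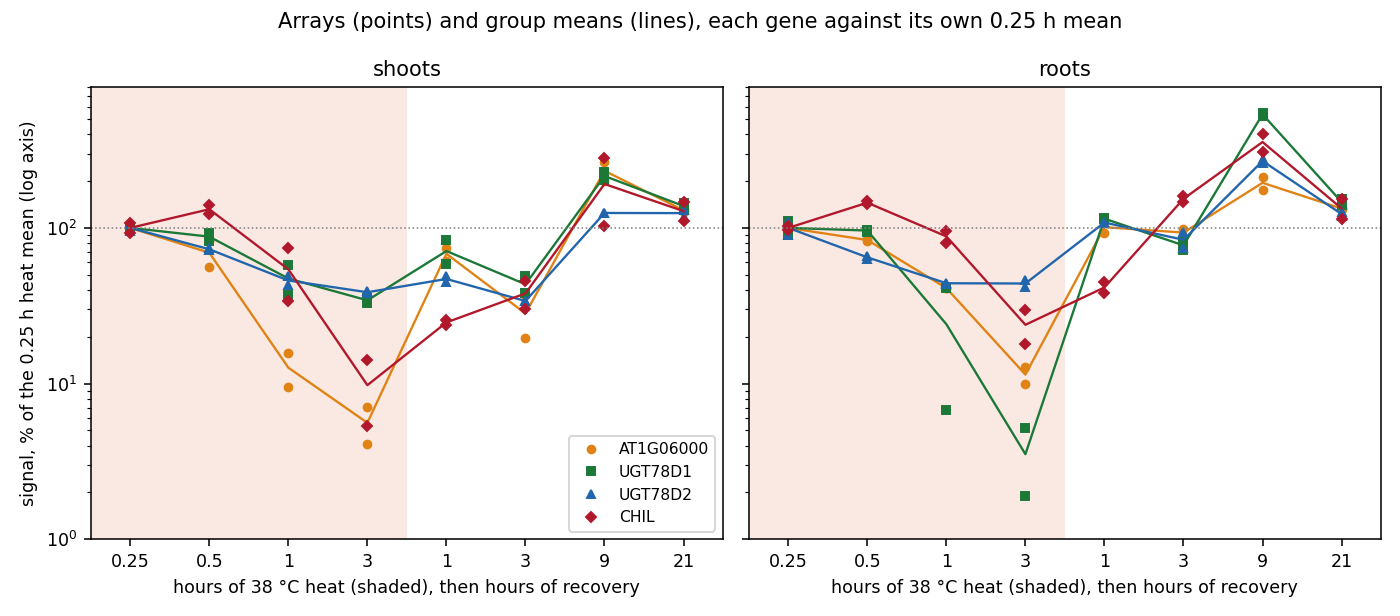
Signal of AT1G06000, UGT78D1, UGT78D2 and CHIL as a percentage of each gene's own mean at 0.25 h of heat (log axis), on each array (points) and as group means (lines), over 0.25 to 3 h of heat (shaded) and 1 to 21 h of recovery. AT1G06000 fell to 5.60% in shoots and 11.4% in roots at 3 h of heat and stood at 233% and 195% at 9 h of recovery.

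The balance of all calls depended on the scaling. Of the probe sets that passed, 60.5% were rises in shoots at 1 h of recovery, and 45.0% after quantile normalization. In roots the share of rises was 53.7% at 1 h of recovery (40.9% after quantile normalization and 36.1% after 75th percentile scaling). With 75th percentile scaling it went from 39.8% to 49.8% at 3 h of heat, from 58.2% to 46.1% at 9 h of recovery and from 60.2% to 49.6% at 21 h. The directions of DFR in shoots and of AT1G06000 in both tissues between 3 and 0.25 h of heat, and between 9 h of recovery and 3 h of heat, were the same under both scalings.

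The 5 listed genes that the filter removed belong mainly to anthocyanin and proanthocyanidin synthesis. BAN reduces anthocyanidins on the way to proanthocyanidins, AT5MAT adds malonate to anthocyanins, AT4G14090 adds glucose to them, and UGT78D3 adds arabinose to flavonols. AT5G54010 is annotated as a glycosyltransferase. AT4G14090 read 16.0 and 12.2 at 0.25 h of heat in shoots, 2.89 and 3.77 at 3 h, and 19.5 and 23.0 at 21 h of recovery, of which 1 array lay above the 40th percentile. None of these genes was tested, and changes between signals this low are not measurable here.

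Supply of the pathway and its neighbouring branches were measured in few genes. AT1G22410 encodes an enzyme of the first step of the shikimate pathway, which leads to phenylalanine. It fell between 0.25 and 3 h of heat in shoots (611 ± 6.33 to 198 ± 29.3, −1.58, limma adjusted p = 1.04e-12) and roots (−1.91), and was higher than at 3 h of heat by 1.37 in shoots and 2.27 in roots at 9 h of recovery. Of 6 genes of the monolignol and sinapate branch, which draws on the same phenylalanine-derived acids, 0 passed in shoots in any of the 4 comparisons. With 4.59% to 11.5% of all probe sets called in each direction there, a count of 0 among 6 genes is near the background. In roots HCT, which commits these acids to lignin, rose at 1 h (1.17), 9 h (1.03) and 21 h of recovery (1.06). Its rises at 9 and 21 h lay close to the threshold. They no longer passed after 75th percentile scaling (0.895 and 0.937) or with 4 times the pseudocount (0.966 and 0.995). UGT84A1, which glucosylates hydroxycinnamates, read 83.4 and 80.6 in roots at 9 h, after 1.09 and 0.82 at 3 h of heat (2.99). The filter kept UGT84A1 only through that 9 h group, and its signals at 3 h of heat were below the 40th percentile. Its difference at 9 h is therefore a description, and its size is poorly defined. At 21 h UGT84A1 passed the threshold (1.07), but all 4 arrays compared lay below the 40th percentile, so this change is not measurable here. UGT72E1, a monolignol glucosyltransferase, fell at 9 h in roots (−1.17).

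The likeness of other genes to each course was described by Pearson's r over group means of log2 signal, among 9211 probe sets kept that name a single gene. The group means share arrays, scaling and RNA composition, so r is a description. Over all 16 groups AT1G06000 was most like AT3G49060 (r = 0.96), AT3G23300 (0.93), TBL28 (0.92), GSTU27 (0.92) and AT1G28570 (0.91). Among the flavonoid genes UGT78D2 (0.83, rank 87) and CHIL (0.83, rank 114) came nearest. Over the 8 shoot groups the nearest were AT5G45060 (0.99), AT5G06790 (0.98), AT3G30460 (0.98), GTR1 (0.97) and AT1G01390 (0.97), and UGT78D1 stood at rank 12 with r = 0.96, against rank 4420 with r = 0.24 over all 16 groups.

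DFR was most like AT4G38950 (r = 0.94), AT1G65870 (0.93), AT3G21390 (0.92), JMT (0.91) and AT3G14067 (0.91) over the 16 groups, an order that rests partly on its low signal in all root groups. Over the 8 shoot groups the nearest were AT1G77090 (0.99), AT1G62250 (0.99), AT1G80800 (0.98), AT1G67330 (0.98) and AT2G38740 (0.98). The nearest flavonoid gene there was HYH (0.94, rank 50). DFR and AT1G06000 had r = 0.22 over 16 groups and 0.64 over the 8 shoot groups.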

How the data were processed

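The deposited MAS5 signal of 22810 probe sets on 32 arrays was used, made and scaled by the authors, as the submitters' processing notes and the values show. The MAS5 version and a genome build were not given in the sources used here, so no coordinates are given, and detection calls were not used. Gene names came from the platform annotation, matched to RefSeq. Of 22746 probe sets for genes, 13513 named a single gene, 503 several and 8730 none here.

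Values were taken as log2(signal + 10.7), the constant being the 25th percentile of the signal, taken as the median over arrays. A probe set was kept where both arrays of at least 1 group exceeded their 40th percentile, which kept 16782 and removed 5964. The 16 group means were fitted in a linear model with limma 3.58.1 in R 4.3.3 (lmFit, eBayes with trend, 16 residual degrees of freedom), with Benjamini-Hochberg adjustment within each contrast over all probe sets kept. The fit was tested on simulated data. Tables were made with Python 3.11.15 and pandas 2.3.3.

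The members and lists were chosen with earlier results of these data known. Named genes were both members, all flavonoid and phenylpropanoid list genes with a single-gene probe set, those that passed first, and the 5 highest correlations with each member over 16 and over 8 group means. Alternatives were the pseudocount, the scaling, the filter, the spread model, the replicate number as a block and each array left out. The planned tissue test of DFR is not reported as a result, since the filter kept that gene through shoots alone.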

Additional observations from a re-analysis of the deposited data

Results flagged for a closer look

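For 2 flavonoid genes, every array of the shoot groups moved one way and every array of the root groups the other in the same comparison of times. None of these differences between tissues was tested. TRY differed by −0.82 on the log2 scale (shoots minus roots) between 0.25 and 3 h of heat (−0.56 in shoots, 0.26 in roots, neither of which passed). Between 3 h of heat and 21 h of recovery TRY differed by 1.77 (1.26 in shoots, which passed, and −0.51 in roots, which did not), and its root signals were below the 40th percentile of their arrays. AT1G23390 differed by −2.85 between 3 h of heat and 9 h of recovery (−1.93 in shoots, which passed, and 0.93 in roots, which did not).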

How the results depend on the processing

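No called direction reversed under any alternative. Differences that had not passed could change sign, such as that of DFR in roots between 9 h of recovery and 3 h of heat. Changes with time depended on the pseudocount, which weighs most on the dim signals at 3 h of heat. With 0.25 times the pseudocount, the difference between 3 and 0.25 h of heat was −2.18 for DFR in shoots, −3.78 for AT1G06000 in shoots and −2.996 in roots, and with 4 times as much it was −0.82, −1.82 and −1.88, and −0.19 for DFR in roots. For 3 h of heat and 9 h of recovery the values were 1.59, 4.97 and 3.94 with 0.25 times as much, and 0.52, 2.82 and 2.70 with 4 times as much. Leaving out each replicate gave −1.90 to −1.29 for DFR in shoots between 3 and 0.25 h of heat, and between 3 h of heat and 9 h of recovery 0.80 to 1.41 for DFR in shoots, −0.26 to 0.47 for DFR in roots and 3.95 to 4.35 for AT1G06000 in shoots.

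DFR reached the threshold for shoots over roots, which its filter favours, at 2 times as fitted. The count was 5 with 0.25 times the pseudocount, 0 with 4 times as much, 4 after quantile normalization and 4 after 75th percentile scaling. Leaving out each replicate gave 1 to 3 times. Of the 9 flavonoid genes in shoots, 3 fell in heat and 3 rose at 9 h of recovery with 4 times the pseudocount. At 1 h of recovery in shoots 4 rose with 0.25 times as much, 0 with 4 times as much and 0 after quantile normalization. In roots, 4 times the pseudocount left 2 that fell in heat, 1 that rose and 0 that fell at 1 h, and 2 that rose at 21 h of recovery, and 0.25 times as much gave 1 that fell at 9 h. Leaving out each replicate gave 1 to 3 genes that rose in shoots at 1 h of recovery.

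The labels number the replicates 1 and 2 in each group without saying that a number marks a shared batch. Deviations of same-numbered arrays from their group means correlated at −0.19 to 0.16 over 120 pairs of groups (median 0.004), so no pairing by number common to all groups was seen. Whether some groups shared a batch was not tested. With the replicate block, the log2 difference of AT1G06000 in shoots between 3 and 0.25 h of heat was −3.01. AT1G06000 was higher in roots at 3 times, and no call on its tissue differences and no count of flavonoid genes changed.

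The median of all probe sets in recovery against 3 h of heat was 0.09 to 0.15, and 0.005 to 0.047 after 75th percentile scaling. With 2 arrays per group and no detection calls, changes below the 40th percentile are not measurable, which covers DFR in roots.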

Other observations

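Of 41 other genes named as glycosyltransferases, 32 were kept by the filter. In shoots between 0.25 and 3 h of heat, 3 of them rose and 1 fell, beside 6.05% and 8.25% of all probe sets. UGT84A3, which glucosylates hydroxycinnamates, went from 20.6 ± 2.85 to 78.6 ± 10.8 (SD, 2 arrays each, log2 difference 1.51, limma adjusted p = 7.27e-07), UGT85A5 rose by 1.18 and UGT73C1 by 1.59, and the cytokinin glucosyltransferase UGT76C2 fell by 1.26. In shoots UGT73C1 lay above the 40th percentile at 3 h of heat, and below it at 0.25 h and at 1, 9 and 21 h of recovery. Its rise is therefore a description of poorly defined size. The same holds for its falls, counted below in shoots at 1, 9 and 21 h of recovery. In roots 0 rose and 8 fell over the same interval, beside 6.05% and 9.17%, led by UGT85A2 (211 ± 2.43 to 39.8 ± 15.0, −2.16, limma adjusted p = 1.32e-09). At 1 h of recovery 9 rose in roots and 0 fell, beside 4.88% and 4.2%, UGT85A2 to 318 ± 51.6 (2.73). In shoots 0 rose and 1 fell, beside 7.03% and 4.59%. At 9 h of recovery 8 rose in roots and 0 fell, beside 9.67% and 6.95%, and 3 rose and 3 fell in shoots, beside 11.5% and 7.13%. UGT71B1 rose there by 2.06. At 21 h 9 rose and 0 fell in roots, beside 10.2% and 6.76%, and 3 rose and 3 fell in shoots, beside 9.15% and 7.13%.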
